A study of Rattus norvegicus with 12 samples.

Results

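Fibroblast-like synoviocytes (FLS) treated with the highest and with the lowest dose of taurochenodeoxycholic acid (TCDCA) were compared: the AT10 group at 10 µM (1e-05 M) and the AT01 group at 0.1 µM (1e-07 M). These are 6 of the 12 libraries of the series, 3 in each group, and they were chosen by their labels and not by any measured value. Of the 22442 gene records in the expression table, 11611 averaged 1 FPKM or more in the 12 libraries and were compared. FPKM is a count of sequenced fragments scaled for transcript length and for the size of the library. The cells of all groups were FLS at the third passage, grown from the synovium of male Sprague-Dawley rats in which adjuvant arthritis had been induced with complete Freund's adjuvant, and the doses were applied for 12 h. The other 2 groups, with 3 libraries each, are cells in DMEM without TCDCA (FCA) and cells with TCDCA at 1 µM (AT1), and they serve here only to show on which side of the difference between AT10 and AT01 other cultures fall. The study's methods describe the 3 libraries of a group as repeats, but not whether they came from separate rats or cultures, so the spread between them may be technical.

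TCDCA is a conjugated bile acid, made in the liver from chenodeoxycholic acid and taurine. Bile acids act on cells through nuclear receptors such as FXR and through the membrane receptor TGR5 (gene Gpbar1), which raises cyclic AMP, and TCDCA has been studied for a link to the glucocorticoid receptor (gene Nr3c1). FLS line the joint, secrete lubricin and hyaluronan, and in arthritis release cytokines, prostaglandins and matrix-degrading enzymes. Several groups of genes that could carry a dose response in such cells were therefore followed by role: rapid response genes, inflammatory mediators, matrix enzymes, receptors and their targets, and genes of growth and stress.

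The libraries were alike in scale. The FPKM values of a library summed to between 284210 and 309696, and between 11471 and 11679 records reached 1 FPKM. Pearson's r of log2(FPKM + 1) between libraries of the same group ranged from 0.926 to 0.946 over 6 pairs, and between an AT10 and an AT01 library from 0.929 to 0.948 over 9 pairs, so that the ranges overlapped. The table holds no read counts, so no counting interval is given. Of 16 FLS markers 15 were in the table, and their sum was high in both groups though some members were low. Their summed FPKM was 5936 to 7435 in AT10 and 6473 to 7188 in AT01, with decorin (Dcn), lumican (Lum), vimentin (Vim) and type I and III collagen leading. Lubricin (Prg4), the lubricant of the lining layer, was at 26.8 to 33.8 FPKM in AT10 and 28.2 to 33.7 in AT01. Low members were Vcam1, at 4.01 to 4.87 FPKM in AT10 and 4.48 to 4.85 in AT01, and Clic5, at 0.92 to 0.97 and 0.79 to 0.95. Hapln1 was at 0 to 0.02 FPKM in AT10 and 0 to 0.01 in AT01. Of 15 macrophage and leukocyte markers 9 were in the table, 6 of these stayed under 1 FPKM in all libraries and 1 was at 0 throughout. The list summed to 18.5 to 21.5 FPKM in AT10 and 7.14 to 20.3 in AT01. Most of this was Cd14, at 18.4, 16.5 and 16.4 FPKM in AT10 and 3.72, 17.6 and 15.9 in AT01. FCA and AT1 each held a low Cd14 library as well, at 4.60 and 3.60 FPKM.

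The doses parted few genes. The comparison used log2(FPKM + 1) and limma, and a record met the criterion of the study if its unadjusted p was under 0.05 and its log2 fold change was beyond 1 in either direction. A log2 fold change is always AT10 minus AT01, on the log2(FPKM + 1) scale, which understates the change of weakly expressed genes. By this criterion 78 of 11611 records differed, which is 0.672%. Of these, 23 were higher in AT10 (0.198%) and 55 were lower (0.474%). After adjustment by Benjamini and Hochberg over all of these records, 8 (0.0689%) had a p under 0.05. An unadjusted p under 0.05 alone was met by 577 records (4.97%), 249 of them higher in AT10 (2.14%) and 328 lower (2.82%). The 3 values of AT10 lay wholly outside the 3 values of AT01 for 1290 records (11.1%), above them for 539 (4.64%) and below them for 751 (6.47%). The median log2 fold change of all records tested was -8.43e-05, with quartiles at -0.11 and 0.12. A two-sided exact permutation test of 3 libraries against 3 cannot give a p under 0.1, so no single record can pass 0.05 by it.

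The excess of lower records depended on the libraries used. Without the first AT01 library 40 records were higher and 37 lower by the same criterion, so the direction of the split turned. Without the second AT01 library the counts were 37 and 46, without the third 59 and 82, and without the first AT10 library 26 and 34. Of the 55 lower records, 17 belonged to a block that varied with ribosomal RNA. Another 19 had 2 separate levels of expression among the 12 libraries, and both kinds are described below. This leaves 19, some of which are noncoding RNA records or share a name with records of the block. Of the 23 higher records 11 had 2 separate levels, and 12 were of neither kind.

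**Figure D1:**
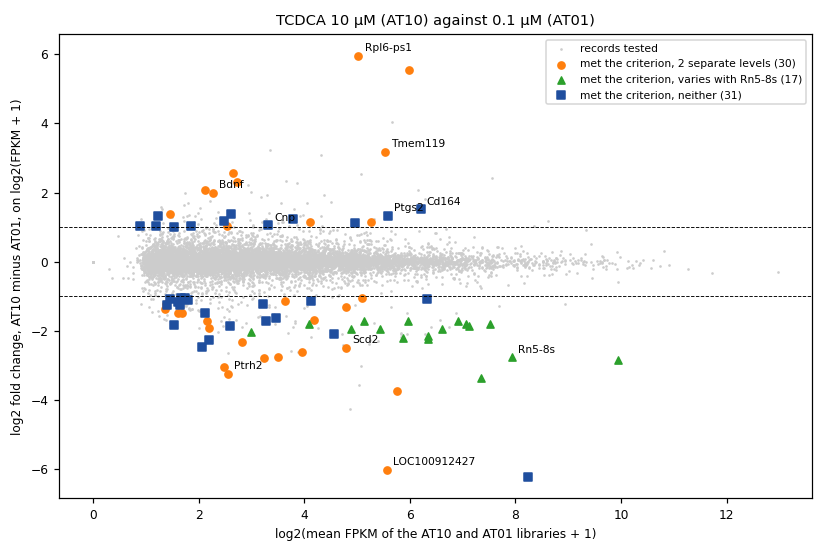
Each point is a gene record. The x axis gives the log2 of the mean FPKM of the 6 AT10 and AT01 libraries plus 1, and the y axis the log2 fold change of AT10 minus AT01. The 11611 records tested are grey, the 78 that met the criterion of the study are coloured by kind, and the dashed lines stand at a log2 fold change of 1 and -1. Beyond these lines lie 264 records, 186 of them grey because their p is not under 0.05. The 23 coloured points above the upper line are scattered over the range of expression, and the 17 green triangles below the lower line, which vary with Rn5-8s, lie between a log2 fold change of -3.36 and -1.72.

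Among the 8 records with an adjusted p under 0.05, Tmem119, Phospho2, Rpl6-ps1 and Cnp were higher in AT10 and Ptrh2, Cdkn2aipnl, Scd2 and Pdzrn3 were lower. With 1 library left out between 12 and 24 records passed this threshold, and with the replicate number as a block 0 did. With all 12 libraries in 1 fit 0 did as well, against 35 higher and 63 lower records by the criterion of the study. Tmem119 (record MSTRG.4882), a membrane protein known from bone-forming cells and microglia, was at 85.7, 80.0 and 79.6 FPKM in the 3 AT10 libraries and at 9.68, 6.76 and 8.13 in the 3 AT01 libraries. Its log2 fold change was 3.18 with an SE of 0.13 and an adjusted p of 0.00123 in limma. The FCA libraries stood at the upper level, with 92.7, 104 and 89.2 FPKM, and the AT1 libraries were divided, with 5.11, 6.55 and 81.4.

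Phospho2 (MSTRG.11133), which encodes a phosphatase, was at 9.24, 9.00 and 11.2 FPKM in AT10 and 0.57, 0.71 and 1.17 in AT01, a log2 fold change of 2.58 with an SE of 0.16 (limma, adjusted p = 0.0079). The groups were far apart, but the FCA libraries lay at both levels, with 0.82, 8.68 and 8.68 FPKM. Rpl6-ps1 (MSTRG.15245), a name that marks a pseudogene of the ribosomal protein gene Rpl6, was at 80.9, 62.8 and 45.7 FPKM in AT10 and is listed at 0 in the 3 AT01 libraries (limma, adjusted p = 0.000959). Reads of such a copy can be shared with its parent gene, and the value is uncertain for that reason. It is listed at 0 in 2 of the 3 FCA libraries and in 1 AT1 library as well. Cnp (MSTRG.3424), an enzyme known from myelin, was at 12.6, 12.3 and 12.2 FPKM in AT10 and at 5.55, 5.50 and 5.29 in AT01, with a log2 fold change of 1.05 and an SE of 0.07 (limma, adjusted p = 0.00953). The FCA libraries, at 14.2, 6.03 and 4.60 FPKM, and the AT1 libraries, at 4.84, 5.63 and 13.5, each held low and high values.

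Ptrh2 (MSTRG.3229), a mitochondrial peptidyl-tRNA hydrolase, had the smallest adjusted p of the comparison. It was at 0.15, 0.10 and 0.12 FPKM in AT10 and at 9.65, 9.42 and 9.76 in AT01, a log2 fold change of -3.24 with an SE of 0.08 (limma, adjusted p = 0.000255). The FCA libraries gave 8.44, 9.06 and 0 FPKM and the AT1 libraries 9.54, 0.05 and 0, so libraries of both groups were found at each level. Scd2 (MSTRG.2179), a stearoyl-CoA desaturase that makes monounsaturated fatty acids, was at 8.80, 7.17 and 6.39 FPKM in AT10 and 48.0, 45.9 and 44.6 in AT01, with a log2 fold change of -2.49 and an SE of 0.12 (limma, adjusted p = 0.00255). One FCA library, at 12.2 FPKM, and 1 AT1 library, at 10.8, were low as well.

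Cdkn2aipnl (MSTRG.2663) was at 1.95, 1.85 and 1.99 FPKM in AT10 and 20.7, 19.4 and 16.3 in AT01, a log2 fold change of -2.75 with an SE of 0.11 (limma, adjusted p = 0.00118). Here 1 FCA library was low, at 1.87 FPKM, and the 3 AT1 libraries were all high. Pdzrn3 (MSTRG.12859), a ubiquitin ligase with PDZ domains, was at 0.31, 0.27 and 0.22 FPKM in AT10 and 4.23, 3.37 and 3.03 in AT01, with a log2 fold change of -1.83 and an SE of 0.13 (limma, adjusted p = 0.0136). This is the minor of 2 records of that name. With both records summed the log2 fold change was -0.12, so the difference is that of the minor record.

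**Figure D2:**
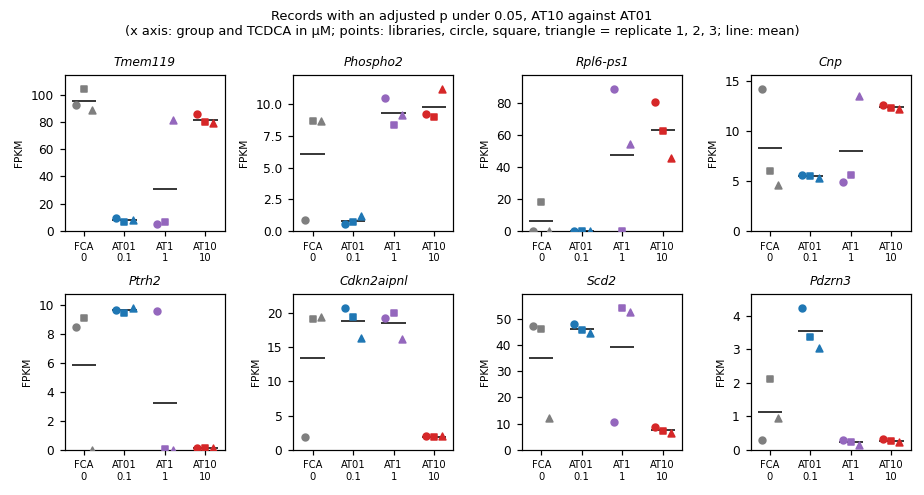
FPKM in each library of the 8 records with an adjusted p under 0.05, by group on the x axis with the TCDCA dose in µM. Points are libraries, with the circle, square and triangle for replicates 1, 2 and 3, and the line is the group mean. AT10 and AT01 are apart in each panel, while FCA or AT1 libraries stand at both levels in most panels, as for Scd2, where 1 FCA library is at 12.2 FPKM and the other two are at 47.4 and 46.2.

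Of these 8 records 6, all except Cnp and Pdzrn3, had 2 separate levels: when the 12 libraries were sorted by log2(FPKM + 1), the largest step between neighbours was 1 or more, exceeded the range of the values above it and below it, and had 2 or more libraries both above and below. This was so for 30 of the 78 records that met the criterion of the study (38.5%), against 4.52% of all records tested. A difference beyond 1 between the groups makes a step of 1 or more likelier. The criterion itself therefore raises the first share, and the contrast is no independent result. In 28 of the 30 the FCA or the AT1 libraries, which received 1 treatment each, were themselves found at both levels, and in 23 of the 30 the AT10 or the AT01 libraries were. Records of genes that every cell uses can be listed at 0. Of the 2 records of Cycs, which encodes cytochrome c of the respiratory chain, MSTRG.8245 is listed at 0 in all 3 AT10 libraries and in 2 of the 3 AT01 libraries, and at 38.5 FPKM in the third, and MSTRG.8244 averaged 0 FPKM in AT10 and 3.76 in AT01. LOC100363502, described in the table as like somatic cytochrome c, was at 57.9 to 62.2 FPKM in AT10 and 57.8 to 133 in AT01. Reads can be shared between such copies, so a 0 is that of a record and not of the gene. The part of such jumps in the differences between doses was not tested. Without the records at 2 levels, 12 records were higher, 40 were lower and 2 had an adjusted p under 0.05.

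More of the records that met the criterion of the study are of known function. Cd164 (MSTRG.10694), a sialomucin of the cell surface, was at 104, 112 and 107 FPKM in AT10 and 41.0, 41.5 and 30.2 in AT01, a log2 fold change of 1.51 with an SE of 0.14 (limma, adjusted p = 0.055). The AT10 values were above those of all other libraries, the nearest of which was an FCA library at 86.1 FPKM. The FCA libraries, at 82.5, 38.8 and 86.1 FPKM, and the AT1 libraries, at 28.9, 85.7 and 23.7, each held low and high values. Ptgs2 (MSTRG.5133), the inducible cyclooxygenase that starts prostaglandin synthesis, was at 40.5, 66.2 and 98.0 FPKM in AT10 and 35.1, 22.1 and 20.3 in AT01, with a log2 fold change of 1.32 and an SE of 0.36 (limma, adjusted p = 0.867). Its lowest AT10 value was close to the highest FCA value of 40.8 FPKM, and the 3 AT10 libraries spanned more FPKM than those of any other group.

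Bdnf (MSTRG.11390), a neurotrophin and a known target of CREB, was at 8.78, 0.97 and 11.5 FPKM in AT10 and 0.73, 0.47 and 0.51 in AT01, with a log2 fold change of 1.99 (limma, adjusted p = 0.867). The FCA libraries were at 6.88, 6.59 and 7.89 FPKM and the AT1 libraries at 6.83, 0.75 and 7.69, and the record had 2 separate levels. The second AT10 library was close to the AT01 level, and the groups are only just apart. Bdnf missed the criterion when any 1 of 5 of the 6 libraries was left out, with a log2 fold change between 1.49 and 2.06. The record of Cebpb (MSTRG.12039), a transcription factor of the inflammatory response, was at 3.37, 2.86 and 2.13 FPKM in AT10 and at 0, 2.05 and 0 in AT01, and is listed at 0 in 1 FCA library and in 2 AT1 libraries. Its lowest AT10 value was close to its highest AT01 value. Marcks (MSTRG.10661), a substrate of protein kinase C, was at 8.70, 7.64 and 6.01 FPKM in AT10 and 2.71, 5.04 and 0.49 in AT01, and Fzd7 (MSTRG.18039), a receptor for Wnt ligands, at 1.91, 1.80 and 2.29 in AT10 and 1.07, 0 and 0.56 in AT01. The FCA and AT1 libraries of both Marcks and Fzd7 lay above all AT01 values. For Marcks they were at 5.85 to 7.32 FPKM in FCA and 6.60 to 9.45 in AT1, and for Fzd7 at 1.13 to 1.99 and 2.41 to 3.20. Cebpb and Fzd7 were chosen after their values were seen. Neither Marcks nor Fzd7 held the criterion in every set of libraries. With 1 library left out Marcks met it only without the second AT01 library, and without the third AT01 library its log2 fold change was 0.82. That of Fzd7 was 0.74 without the second AT01 library and 0.95 without the third AT10 library.

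Others of the named records had 1 deviating library or a value of 0 in 1 group. LOC100912427 (MSTRG.2706) is listed at 0 in the 3 AT10 libraries and was at 14.6, 127 and 137 FPKM in AT01, but 1 FCA library is at 0 too and the other two are at 149 and 159.7. LOC100362339 (MSTRG.7667) was at 172, 1.94 and 199.6 FPKM in AT10 and is listed at 0 in the 3 AT01 libraries and in 2 FCA libraries. A record of Dnajc3 (MSTRG.6672), a co-chaperone of the endoplasmic reticulum, is listed at 0 in AT10 and was at 15.9, 2.12 and 9.48 FPKM in AT01, while the sum over both records of that name differed by only -0.28. Epm2aip1 (MSTRG.17507), named for binding laforin, was at 5.17, 6.23 and 5.68 FPKM in AT10 and 3.09, 0 and 0 in AT01. LOC100361993 (MSTRG.5453) was at 18.8, 0.25 and 1.22 FPKM in AT10 and 21.8, 22.2 and 22.2 in AT01, and AABR07007121.1 (MSTRG.2306) at 0, 7.96 and 0 in AT10 and 14.5, 8.47 and 19.4 in AT01. In both of these 1 AT10 library stood near the AT01 level, and each missed the criterion in several sets with 1 library left out, at log2 fold changes between -2.61 and -1.80 for LOC100361993 and between -2.74 and -2.27 for AABR07007121.1. LOC100362339 missed it without the first or the third AT10 library, at 4.60 and 4.49.

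Within the threshold of 1 in log2 fold change stood a further set of genes with small spread in both groups, chosen after their values were seen. Phf6 (MSTRG.19025), a chromatin protein, was at 7.55, 8.03 and 8.93 FPKM in AT10 and 3.94, 4.29 and 3.83 in AT01, with a log2 fold change of 0.87 and an SE of 0.09 (limma, adjusted p = 0.108). Orc2, a subunit of the origin recognition complex, was at 9.11 to 9.56 FPKM in AT10 and 5.50 to 7.22 in AT01. Dek, a chromatin architectural protein, was at 19.3 to 22.1 and 8.10 to 13.7 FPKM, and Nucks1, a nuclear protein that binds chromatin, at 17.1 to 20.7 and 11.5 to 14.1. All 4 were higher in each AT10 library than in any AT01 library, as were 4.64% of all records, and none had an adjusted p under 0.05. Since they were chosen with their values known, this separation is no evidence of its own. Ube2d2, a ubiquitin-conjugating enzyme, was at 22.4 to 30.8 FPKM in AT10 and 13.0 to 16.4 in AT01.

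In the other direction, Ndst1, an enzyme that sulfates heparan sulfate, was at 5.04, 6.19 and 4.33 FPKM in AT10 and 10.2, 11.5 and 9.70 in AT01, a log2 fold change of -0.90 with an SE of 0.14 (limma, adjusted p = 0.307). Idua, the lysosomal iduronidase that breaks down heparan and dermatan sulfate, was at 10.9, 11.2 and 10.6 FPKM in AT10 and 18.0, 15.2 and 18.6 in AT01. Olfml2b, an extracellular protein, was at 17.6, 15.3 and 13.6 FPKM in AT10 and 24.6, 26.3 and 27.1 in AT01. H2afy2, a macroH2A histone, was at 5.84, 4.59 and 4.74 FPKM in AT10 and 8.20, 8.73 and 8.60 in AT01. All 4 were lower in each AT10 library than in any AT01 library, with log2 fold changes between -0.90 and -0.61. They too were chosen with their values known, and 6.47% of all records were separated in that direction.

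Many rapid response genes were higher in AT10 than in AT01 in every library. Immediate early genes are switched on within minutes by growth factors, stress or cyclic AMP through factors already present in the cell, among them serum response factor at CArG boxes and CREB at cyclic AMP response elements. The list of 40 such genes was written after a few of them had been seen among the leading records, so its counts describe these data and are not independent evidence. Of the 36 tested, 30 were higher in AT10 and 6 lower, 12 had an unadjusted p under 0.05, all higher, and 14 lay wholly above AT01, none below. The median log2 fold change was 0.25. Beside this stand 2.14% of all records for the p and 4.64% for the separation in that direction. Only Ptgs2 met the criterion of the study, and none had an adjusted p under 0.05. With a pseudocount of 0.1 in place of 1 Egr2 met it as well, at a log2 fold change of 1.01.

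Egr1 (MSTRG.8026), a zinc finger transcription factor, was at 46.7, 47.0 and 41.5 FPKM in AT10 and 22.3, 28.2 and 23.4 in AT01, a log2 fold change of 0.85 with an SE of 0.11 (limma, adjusted p = 0.304). The FCA libraries, at 40.1, 43.2 and 41.9 FPKM, were close to AT10, and the AT1 libraries, at 24.3, 25.5 and 22.4, close to AT01. Its relative Egr2 was at 2.69, 2.37 and 2.43 FPKM in AT10 and 0.85, 1.23 and 1.60 in AT01, a log2 fold change of 0.66 with an SE of 0.15. The FCA values of Egr2, 2.03 to 2.59 FPKM, again lay above all AT01 values.

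The nuclear receptor Nr4a1 (MSTRG.16543) was at 99.6, 98.4 and 89.7 FPKM in AT10 and 74.9, 71.9 and 66.9 in AT01, with a log2 fold change of 0.42 and an SE of 0.08 (limma, adjusted p = 0.586). FCA was at 93.4, 96.9 and 98.9 and AT1 at 68.7, 72.9 and 67.6 FPKM, so FCA stood with AT10 and AT1 with AT01. Nr4a2 of the same family was at 22.5, 22.7 and 26.2 FPKM in AT10 and 18.4, 16.4 and 19.7 in AT01, a log2 fold change of 0.37. The third member, Nr4a3, overlapped, with 5.59 to 11.7 FPKM in AT10 and 7.14 to 8.27 in AT01.

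Of the AP-1 and Myc transcription factors, Jun was at 21.3, 21.7 and 22.6 FPKM in AT10 and 18.2, 17.3 and 17.3 in AT01, with a log2 fold change of 0.30. Myc was at 23.1, 24.9 and 26.5 FPKM in AT10 and 20.6, 19.9 and 19.8 in AT01, with a log2 fold change of 0.29. For both, all 3 FCA libraries were above all AT01 libraries, with 19.9 to 22.8 FPKM for Jun and 22.6 to 26.2 for Myc. Fos overlapped between the doses, with 6.15 to 8.63 FPKM in AT10 and 5.41 to 6.28 in AT01, and FCA was at 8.45 to 15.0. Fosl1 was at 2.34 to 4.24 FPKM in AT10 and 1.70 to 2.22 in AT01, while Fosl2 and Jund overlapped.

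Among the feedback regulators, Dusp5 (MSTRG.2262), a phosphatase that acts on ERK in the nucleus, was at 4.83, 4.24 and 4.82 FPKM in AT10 and 2.49, 2.84 and 2.41 in AT01, with a log2 fold change of 0.65 and an SE of 0.09 (limma, adjusted p = 0.304). One FCA library, at 2.50 FPKM, was within the AT01 range. Btg2, an antiproliferative factor, was at 58.1, 54.8 and 54.8 FPKM in AT10 and 40.8, 43.2 and 28.0 in AT01, a log2 fold change of 0.59, with FCA at 51.9 to 56.6. Csrnp1 was at 21.9 to 22.9 FPKM in AT10 and 16.0 to 18.9 in AT01, Phlda1 at 115 to 139 and 74.7 to 96.3, the kinase Plk2 at 13.9 to 18.4 and 9.71 to 11.9, and Ier2 at 27.8 to 32.2 and 24.5 to 27.1. All of these were higher in every AT10 library than in any AT01 library.

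The differences of most of these genes were small and not all members shared them. Errfi1, a feedback inhibitor of the EGF receptor, was lower in AT10, at 6.67, 11.8 and 4.21 FPKM against 29.2, 28.7 and 8.49, but the third AT01 library lay within the AT10 range. Ctgf was at 190.0, 717 and 142 FPKM in AT10 and 549, 678 and 656 in AT01, so that 2 AT10 libraries were low and 1 was not. Without that library, the second, the log2 fold change of Ctgf was -1.92 and met the criterion, as did its -1.22 with all 12 libraries in 1 fit. With all 6 libraries alone it did not. Dusp1 (MSTRG.2553), a phosphatase that inactivates MAP kinases, was at 149, 181 and 40.7 and 142, 147 and 47.8 FPKM, with 1 low library in each group. Itga5, the fibronectin receptor subunit, is no immediate early gene but followed the same order of groups, at 36.7 to 41.5 FPKM in AT10, 36.9 to 43.9 in FCA, 29.4 to 30.7 in AT1 and 26.4 to 29.7 in AT01. It was chosen after its values were seen.

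**Figure D3:**
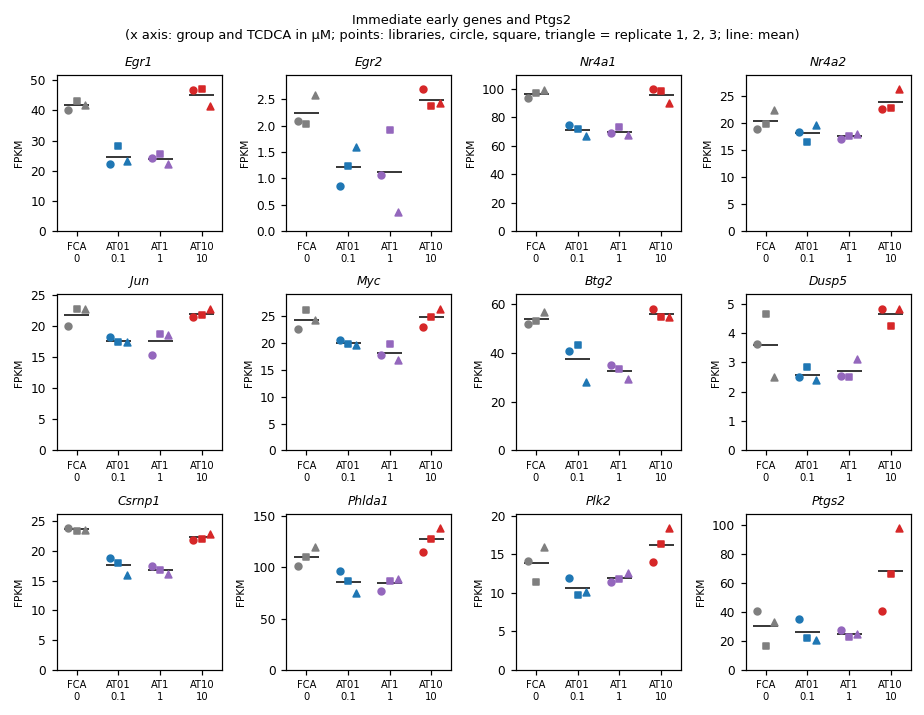
FPKM in each library of 12 of the 14 immediate early genes that lay wholly above AT01, out of 36 tested, by group on the x axis with the TCDCA dose in µM. Points are libraries, with the circle, square and triangle for replicates 1, 2 and 3, and the line is the group mean. Only genes without overlap are drawn, so in all 12 panels the 3 AT10 libraries lie above the 3 AT01 libraries. In most of them the FCA libraries are near AT10 and the AT1 libraries near AT01, as for Egr1 with FCA at 40.1 to 43.2 FPKM and AT1 at 22.4 to 25.5.

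The order of the groups in these genes did not follow the dose, since the untreated cells were near the highest dose. Over all records with an unadjusted p under 0.05 and no overlap, untreated cells on the side of AT10 were not the rule. Of the 230 such records that were higher in AT10, all 3 FCA libraries lay on the AT10 side in 42 and on the AT01 side in 73, and in 115 they were divided. Of the 302 that were lower in AT10, the FCA libraries lay on the AT10 side in 71, on the AT01 side in 57 and on both in 174.

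For 28 of the 36 immediate early genes RefSeq (GRCr8) holds a promoter, and the 250 bases before the start of transcription were searched on both strands for the CArG box of serum response factor, CC, then 6 bases of A or T, then GG, and for TGACG, the core of the cyclic AMP response element. A CArG box was found in 21.4% of the 28 and in 1.5% of 27457 rat promoters of the same length. TGACG was found in 67.9% of the 28 and in 19.0% of all promoters. Of the 11 genes with a promoter that lay wholly above AT01, 27.3% held a CArG box and 81.8% held TGACG. Both motifs are known features of these genes as a class, so the shares say nothing of the dose. The promoters of 3 of these 11 genes, chosen to show both motifs, are printed 5′ to 3′ on the strand of the gene, with the CArG box and TGACG (or CGTCA on the other strand) in capitals. They are Nr4a1 at chr7:134259888-134260137 on the plus strand with 4 TGACG, Dusp5 at chr1:262543524-262543773 on the plus strand with 2 adjacent CArG boxes and 1 TGACG, and Btg2 at chr13:48087691-48087940 on the minus strand with TGACG on both strands of 1 overlapping site.
Nr4a1: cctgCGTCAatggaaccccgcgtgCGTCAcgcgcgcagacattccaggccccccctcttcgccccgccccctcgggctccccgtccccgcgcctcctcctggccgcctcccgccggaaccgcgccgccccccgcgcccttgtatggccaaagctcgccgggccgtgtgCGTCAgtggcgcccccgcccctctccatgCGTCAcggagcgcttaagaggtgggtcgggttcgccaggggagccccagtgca
Dusp5: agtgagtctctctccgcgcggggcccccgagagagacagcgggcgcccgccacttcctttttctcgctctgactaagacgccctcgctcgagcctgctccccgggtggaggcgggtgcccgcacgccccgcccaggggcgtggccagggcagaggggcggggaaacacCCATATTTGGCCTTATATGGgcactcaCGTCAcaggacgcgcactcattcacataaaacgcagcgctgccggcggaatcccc
Btg2: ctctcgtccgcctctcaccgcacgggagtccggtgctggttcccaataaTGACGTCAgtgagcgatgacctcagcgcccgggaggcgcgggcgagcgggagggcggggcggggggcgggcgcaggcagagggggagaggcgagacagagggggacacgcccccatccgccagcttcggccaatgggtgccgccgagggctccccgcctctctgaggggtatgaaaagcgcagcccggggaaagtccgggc

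A block of the lower records in AT10 varied with ribosomal RNA. Poly(A) selection, used for these libraries, is meant to remove ribosomal RNA. A set of 20 records had a Pearson's r of at least 0.9 over the 12 libraries with Rn5-8s (MSTRG.5791), the 5.8S ribosomal RNA, a set chosen after the values were seen. It holds other 5.8S records, the small noncoding RNAs named pRNA and 7SK, and records with only a clone name or no name. Of the 20, 17 were lower in AT10 by the criterion of the study, 11 lay wholly below AT01, and their log2 fold changes ranged from -3.36 to -1.70, the median being -1.91. The lowest adjusted p among them was 0.867.

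Rn5-8s itself was at 29.9, 22.3 and 229 FPKM in AT10 and 579, 341 and 261 in AT01. The block summed to 485, 387 and 2483 FPKM in AT10, 6686, 3281 and 2913 in AT01, 786, 853 and 397 in FCA and 1929, 2731 and 1611 in AT1. The third AT10 library was thus well above the other two and near AT01. In AT10 the block held between 0.136% and 0.84% of the FPKM of a library, and in AT01 between 1.02% and 2.16%. Without the first AT10 library, or without the second, Rn5-8s no longer met the criterion, at log2 fold changes of -2.35 and -2.15, and the same was so without the first or the second AT01 library, at -2.45 and -2.83. An unnamed record with a neighbouring identifier (MSTRG.5794), outside the block, had the lowest log2 fold change of those called, -6.23, with 0, 0 and 272 FPKM in AT10 and 771, 397 and 373 in AT01. The largest member, AABR07000398.1 (MSTRG.64), was at 114, 91.1 and 901 FPKM in AT10 and 2324, 1283 and 1202 in AT01, and it missed the criterion without the first or second AT10 library or the first AT01 library, at -2.41, -2.25 and -2.55. The part of this block in the other differences was not tested. Without the block 23 records were higher and 38 lower by the criterion of the study. Lower records outside the block included another 7SK record (MSTRG.18557), at 0.57, 0.57 and 3.97 FPKM in AT10 and 14.4, 5.57 and 4.90 in AT01. Metazoa_SRP (MSTRG.4619) and the records MSTRG.68 and MSTRG.14722, whose clone names also occur in the block, were lower and outside it as well.

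**Figure D4:**
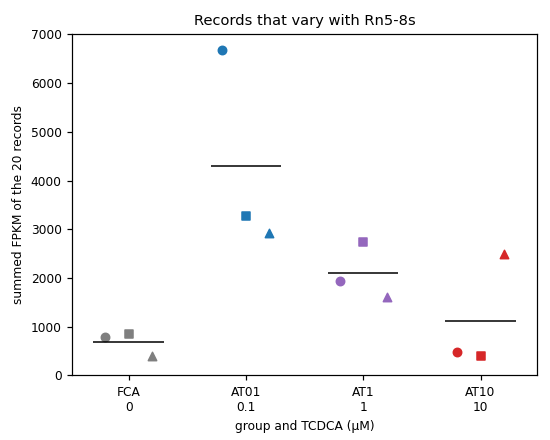
Summed FPKM of the 20 records that vary with Rn5-8s, for each library, by group on the x axis with the TCDCA dose in µM. Points are libraries, with the circle, square and triangle for replicates 1, 2 and 3, and the line is the group mean. All 3 AT01 libraries, from 2913 to 6686 FPKM, lie above the AT10 libraries, of which the third is at 2483.

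The lists of genes written by role, 25 lists and 6 of cell type markers, held 547 distinct members that were tested. Of these, 13 were higher and 10 lower in AT10 at an unadjusted p under 0.05, together 4.20% against 4.97% of all records. The groups did not overlap for 32 members that were higher and 30 that were lower, or 11.3% against 11.1%. Bdnf and Ptgs2 met the criterion of the study, 0.366% of members against 0.672%, and no member had an adjusted p under 0.05. These shares are near the background, so the lists as a whole do not stand apart. The medians of the 25 lists ran from -0.14 to 0.22, and the SD of a list's median between replicate libraries was 0.04 to 0.25. Those of the 6 marker lists ran from -0.12 to 0.42, with SDs of 0.09 to 0.41.

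Receptors and transporters of bile acids were mostly low in these cells. Gpbar1, the gene of TGR5, was at 0.06 FPKM in 1 AT10 library and listed at 0 in the other two and in all AT01 libraries. Of 16 members in the table, 6 reached the mean of 1 FPKM, 4 were higher in AT10 and 2 lower. Slco2a1, an organic anion transporter that takes up prostaglandins, was the one member with an unadjusted p under 0.05, at 2.66, 3.21 and 2.00 FPKM in AT10 and 6.14, 5.14 and 4.77 in AT01. Its log2 fold change was -0.82 with an SE of 0.16 (limma, adjusted p = 0.586). S1pr2, a sphingosine phosphate receptor that responds to conjugated bile acids, was at 13.5, 19.7 and 12.4 FPKM in AT10 and 13.3, 12.2 and 12.9 in AT01 and overlapped.

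The glucocorticoid receptor Nr3c1 (MSTRG.8116) was at 6.53, 7.90 and 9.54 FPKM in AT10 and 8.89, 9.48 and 8.74 in AT01. Of 20 tested members of the list of this receptor and its targets, 3 were higher in AT10 and 17 lower. The median log2 fold change was -0.14, and none had an unadjusted p under 0.05. The median moved to -0.01 without the first AT01 library. Fkbp5, a co-chaperone of the receptor and a standard target, was at 10.1 to 10.5 FPKM in AT10 and 5.91 to 10.6 in AT01, with only the third AT01 library low. Per1 overlapped, at 3.61 to 4.66 FPKM in AT10 and 3.87 to 4.63 in AT01. Tsc22d3, the glucocorticoid-induced leucine zipper, was at 3.24, 2.45 and 11.2 and 13.4, 2.78 and 5.19 FPKM, with 1 high library in each group. Mt1 is listed at 0 in all but 1 of these 6 libraries.

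In the list of the cyclic AMP, PKA and CREB pathway, 14 of 23 members were higher and 9 lower in AT10, with a median of 0.07. Bdnf, Nr4a1 and Nr4a2 had an unadjusted p under 0.05. Nr4a1 and Nr4a2 are also immediate early genes, and among 3 other known CREB targets, Per2, Ppargc1a and Crem, the log2 fold changes were -0.22, -0.13 and 0.01. Prkaca, the catalytic subunit of PKA, had the lowest value of the list, -0.52, and Bdnf the highest. The median was -0.10 when only members of at least 10 FPKM were kept.

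Of the chemokines and cytokines 13 of 20 were higher in AT10 and 7 lower, with a median of 0.22 and an SD between replicates of 0.25, so the shift is within the spread. Il1a, an early inflammatory cytokine, was at 2.82, 3.18 and 5.35 FPKM in AT10 and 1.17, 1.56 and 2.18 in AT01, with a log2 fold change of 0.84 and an SE of 0.24 (limma, adjusted p = 0.867), and was the one member with an unadjusted p under 0.05. The abundant mediators overlapped. Il6 was at 126, 147 and 205 FPKM in AT10 and 148, 125 and 178 in AT01, and Cxcl1, a neutrophil chemokine, at 384, 479 and 978 and 701, 472 and 479. Ccl2, a monocyte chemokine, was at 1714, 1565 and 2737 and 1570.2, 1207 and 2000.2 FPKM. Ccl7 had the highest log2 fold change of the list, 0.91, with 799, 233 and 1493 FPKM in AT10 and 263, 928 and 172 in AT01, a spread within each group larger than the difference. Cx3cl1, or fractalkine, had the lowest, -1.37, with 0.44, 1.24 and 0.38 FPKM against 0.46, 6.91 and 5.65, and also overlapped. The third AT10 library was the highest of its group in Il6, Cxcl1, Ccl2, Ccl7, Il1a and Ptgs2.

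Of the prostaglandin genes 9 of 13 were higher in AT10 and 4 lower, with a median of 0.18, and Ptgs2 alone had an unadjusted p under 0.05. Ptges3, a prostaglandin E synthase and cochaperone of Hsp90, had a log2 fold change of 0.83, with 105, 109.8 and 111 FPKM in AT10 and 31.2, 67.6 and 104 in AT01, and its groups did not overlap. Ptges, the inducible synthase downstream of Ptgs2, was at 2.51, 3.39 and 11.6 FPKM in AT10 and 7.57, 2.62 and 6.24 in AT01. Here the groups overlapped. The prostaglandin receptor gene Ptger1 had the lowest value of the list, -0.97.

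Matrix-degrading enzymes and their inhibitors were divided evenly, 10 higher and 10 lower, with a median of 0.00. Mmp3, or stromelysin, was at 518, 486 and 709 FPKM in AT10 and 533, 454 and 452 in AT01, and the collagenase Mmp13 at 79.5, 92.2 and 74.1 and 56.3, 72.6 and 98.5. Mmp16, a membrane-bound enzyme, had a log2 fold change of -0.45 and was the one member with an unadjusted p under 0.05, at 1.38, 1.52 and 1.59 FPKM against 2.74, 2.70 and 1.89. The highest value was that of Mmp10, 0.37. Mmp2 and the inhibitor Timp1 lay wholly below AT01 with log2 fold changes of -0.19 and -0.21. Mmp24, a membrane-bound enzyme outside the list, met the criterion of the study with the record MSTRG.11859, 1 of 2 of that name, at 0.03, 0.01 and 1.54 FPKM in AT10 and 3.19, 2.24 and 2.36 in AT01. This record had 2 separate levels. Of the collagens and their processing enzymes 7 of 25 were higher and 18 lower, with a median of -0.03, and none had an unadjusted p under 0.05. Their values ran from -0.38 for the lysyl hydroxylase Plod2 to 0.16 for Col5a1. For the matricellular proteins and proteoglycans the counts were 9 and 13 of 22, with a median of -0.03, from -0.34 for thrombospondin 2 (Thbs2) to 0.39 for the hyaluronan synthase Has1. The proteoglycan biglycan (Bgn) entered the list with its largest record, which averaged 783 FPKM in AT10 and 774 in AT01, while a minor record (MSTRG.19018), at 1.32, 8.39 and 2.16 against 7.06, 18.8 and 14.6 FPKM, met the criterion with a log2 fold change of -1.72.

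Signalling lists gave few members with an unadjusted p under 0.05, and their directions differed between lists. Of the TGF-beta, BMP and Wnt genes 9 of 26 were higher and 17 lower, and 3 had an unadjusted p under 0.05, all lower. These were Smad3, a transducer of TGF-beta, at a log2 fold change of -0.81, its partner Smad2 at -0.23 and the Wnt antagonist Sfrp1 at -0.24. The list's median was -0.04, and 4 members lay wholly below AT01 and 0 above. Beside this stand 2.82% of all records for the p and 6.47% for the separation in that direction. The Wnt receptor Fzd1 had the lowest value, -1.30, and Tgfb3 the highest, 0.76, and neither had an unadjusted p under 0.05. Of the growth factor signals and feedback genes of the MAP kinase pathway 14 of 24 were higher, with a median of 0.08. Wholly above AT01 lay 4 of them and wholly below 0, beside 4.64% of all records above. Jun and Myc, which are also immediate early genes, had an unadjusted p under 0.05 and were higher, beside 2.14% of all records. Spry4, a feedback inhibitor, had the lowest value, -1.93, with 0.40, 0.26 and 0.23 FPKM in AT10 and 8.29, 8.63 and 0.34 in AT01. The highest value was that of Spred1, 0.53. For Spry4 the third AT01 library was at the AT10 level. The targets of YAP and serum response factor had 8 of 21 higher and a median of -0.09, which was 0.06 without the third AT10 library. Of these, Egr1 was higher and Myl9, a myosin light chain, was at -0.25.

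In the innate immune lists, the NF-kB list had 14 of 23 members higher and a median of 0.02, with values from -0.22 for the receptor Tlr4 to 0.32 for the NF-kB subunit Rela. Of the interferon-stimulated genes 5 of 13 were higher and 8 lower, with a median of -0.08, and 3 lay wholly below AT01, B2m, Irf7 and Irf9. Beside this stand 6.47% of all records, and over the lists by role and of markers 30 members lay wholly below and 32 wholly above. Irf7 had the lowest value, -0.22, and the immunoproteasome subunit Psmb8 the highest, 0.17. Neither list had a member with an unadjusted p under 0.05.

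Growth and stress lists stayed close to 0. Of the genes of replication and the G1/S transition 22 of 26 were higher in AT10 and 4 lower, but the median was 0.06 with an SD between replicates of 0.05, and none had an unadjusted p under 0.05. Gins1, a subunit of the replicative helicase, had the highest value, 0.40, and Gins2 of the same complex the lowest, -0.36. For the G2/M genes the counts were 16 and 11 of 27 with a median of 0.01, and cyclin B1 (Ccnb1) was the one member with an unadjusted p under 0.05, at -0.18. Their values ran from -0.32 for the mitotic kinase Aurkb to 0.27 for the spindle motor Kif11. Of the genes of apoptosis and p53, 13 of 22 were higher with a median of 0.01. Pmaip1 and Bid, which promote cell death at the mitochondrion, were at 0.58 and 0.40, and the death receptor Fas at -0.43, each with an unadjusted p under 0.05. Phlda3, a p53 target, had the lowest value, -2.06, with 0.68, 0.31 and 113 FPKM in AT10 and 0.49, 111 and 109 in AT01, so that both groups held low and high libraries.

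Bnip3, a mitophagy receptor induced by hypoxia, stood out in the list of glycolysis and hypoxia. It was at 47.8, 50.2 and 33.8 FPKM in AT10 and 24.4, 23.8 and 24.2 in AT01, a log2 fold change of 0.82 with an SE of 0.16 (limma, adjusted p = 0.586). FCA was at 43.6, 41.4 and 41.2 and AT1 at 47.4, 42.2 and 43.5 FPKM, so AT01 alone was low. The other 23 members of the list had no unadjusted p under 0.05, 15 of 24 were higher in AT10, and the median was 0.05. The lowest value was that of hexokinase 1 (Hk1), -0.18.

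The remaining lists also had medians near 0. The median was 0.04 for endoplasmic reticulum stress, with 16 of 24 higher, 0.05 for heat shock proteins, with 11 of 20 higher, and 0.01 for NRF2 and antioxidant genes, with 13 of 24 higher. It was -0.04 for cholesterol synthesis, with 10 of 23 higher, -0.09 for oxidative phosphorylation, with 8 of 27 higher, and -0.08 for lysosomal proteases and cystatins, with 6 of 16 higher. Of the lysosomal list 4 members lay wholly below AT01 and 0 above, beside 6.47% of all records below, and its SD between replicates was 0.06. Of the heat shock list 3 lay wholly above and 0 below, beside 4.64% of all records above, and its SD was 0.04. Cytosolic ribosomal proteins, with 12 of 24 higher, and SR splicing factors, with 9 of 18, had a median of 0.00. In these 8 lists the members with an unadjusted p under 0.05 were the co-chaperone Dnajb4 (0.36), the oxysterol receptor Nr1h3 (-0.23), the ribosomal protein Rps20 (0.41) and cathepsin H (Ctsh, -0.16). Their extremes were single libraries or small differences. Hspb8, a small heat shock protein, was at 9.08, 9.17 and 10.8 FPKM in AT10 and 10.2, 96.7 and 7.92 in AT01, and the stress-induced transcription factor Atf4 at 134, 33.7 and 169.9 and 164, 144 and 147. In the list of oxidative phosphorylation the lowest value, -1.77, was that of the Cycs record that is at 0 in 5 of the 6 libraries. The other extremes lay between -0.62 for Gpx3 and 0.73 for Cstb, among them the chaperone Hsp90aa1 (0.46), the antioxidant enzyme Nqo1 (0.42), Chac1 (0.35), the sterol enzyme Cyp51 (-0.41), Ndufa1 of complex I (0.33), Rplp1 (-0.33), Srsf10 (0.30), Srsf2 (-0.16) and the protease Lgmn (-0.24).

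**Figure D5:**
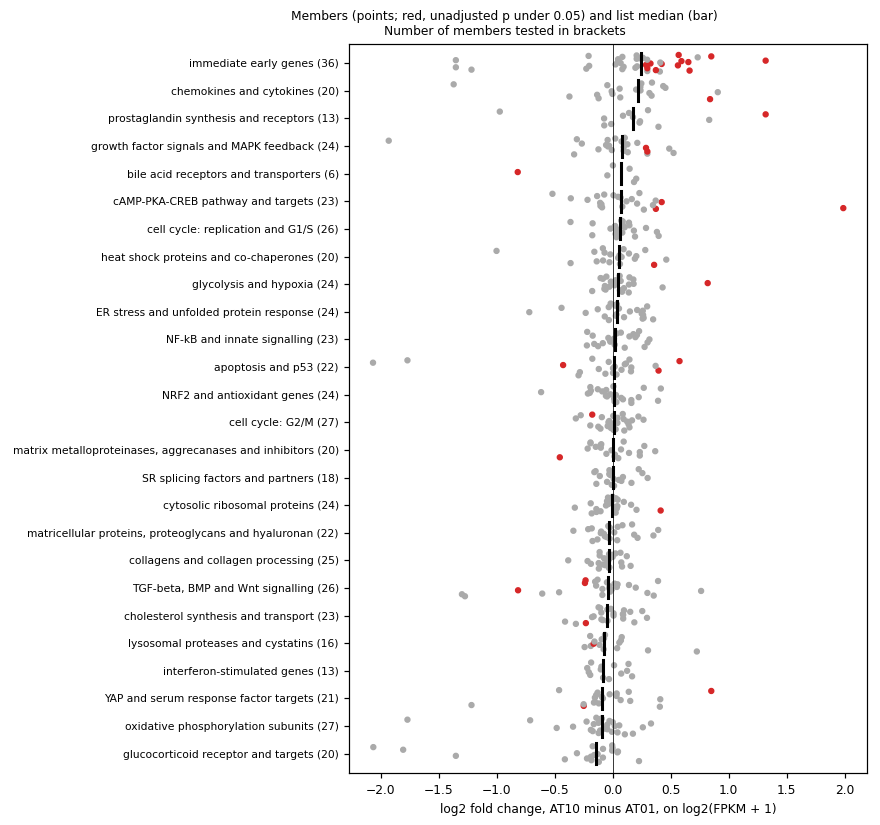
Log2 fold change of AT10 minus AT01 (x axis) of each tested member of the 25 lists and of the immediate early genes (y axis, number tested in brackets). Each point is a gene, red where the unadjusted p is under 0.05, and the black bar is the list's median. The medians lie between -0.14 and 0.25, and the immediate early genes, a list written after values were seen, hold 12 red points, all to the right of 0.

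Markers of other cells were mostly low. For adipocytes the 5 tested markers were all lower in AT10, with a median of -0.12, but none had an unadjusted p under 0.05, and the list summed to 87.1 to 98.8 FPKM in AT10 and 103 to 111 in AT01, so that these sums did not overlap. The part of this in other results was not tested. Endothelial and pericyte markers summed to 24.6 to 32.5 and 22.5 to 29.7 FPKM, from Egfl7 and Cspg4 alone among those tested, chondrocyte markers to 4.74 to 8.56 and 5.74 to 8.32, and skeletal muscle markers to 17.8 to 27.1 and 12.1 to 19.9, from Des and Myod1. The median of these 2, 0.42, was the highest of all the lists, with an SD between replicates of 0.21. Myod1 was at 4.90, 9.22 and 4.63 FPKM in AT10 and 3.66, 3.40 and 3.82 in AT01, so that its groups did not overlap, and its unadjusted p was 0.0506 in limma. Its part in other results was not tested. Of the 13 FLS markers 3 were higher and 10 lower, with a median of -0.05, from -0.45 for podoplanin (Pdpn) to 0.43 for Cd55, a marker of the lining. Thy1, a marker of the sublining, was wholly below AT01, at 142, 129 and 114 FPKM against 144, 142 and 146. In bulk RNA fewer cells of a type and less RNA per cell cannot be told apart.

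Several of the genes that the study took up for their part in inflammation varied within the dose groups. Gpx3, a secreted glutathione peroxidase, was at 289.5, 309 and 114 FPKM in AT10 and 378, 321 and 305 in AT01, so the third AT10 library alone was low. Cstb, or cystatin B, an inhibitor of cathepsins, was at 218, 187 and 131 and 75.9, 80.1 and 191 FPKM, with the third AT01 library at the AT10 level. Without that library the log2 fold change of Cstb was 1.15 and met the criterion, against 0.73 with it. The splicing factor Srsf9 was at 15.0, 29.4 and 14.3 and 16.4, 17.5 and 13.5 FPKM, with the second AT10 library alone high. The zinc transporter Slc39a3 was at 10.1, 3.12 and 10.3 and 9.24, 2.75 and 7.91 FPKM, with 1 low library in each group. The record named Gapdh (MSTRG.13050), the glycolytic enzyme, was at 419, 402 and 415 and 440.2, 374 and 346 FPKM and overlapped. It is not the record that the study reported as GAPDH. That one is LOC108351137 (MSTRG.13790), which the study annotated as GAPDH. It is listed at 0 in all 6 libraries of AT10 and AT01 and was at 1155 to 1285 FPKM in the 6 libraries of FCA and AT1.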

How the data were processed

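The series holds 12 libraries of poly(A) RNA from rat FLS, in 4 groups of 3. After trimming with cutadapt and alignment with HISAT2, the authors built transcripts and computed FPKM with StringTie, analysed differences with Ballgown, and deposited the FPKM values of 22442 records to 2 decimals. The submitters' processing notes also name edgeR. The genome build is not given in the sources used here, so no coordinates of records are printed. The study lists the reads of each library, which differ, with the most in the third AT01 library, and these totals were not used here. The reads behind a single value are unknown and could not be recovered, so no counting error is given. A record is a locus merged by StringTie (17012 records with an MSTRG identifier) or an Ensembl gene, and 1992 have no gene name.

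From these values log2(FPKM + 1) was computed for records that averaged 1 FPKM or more in the 12 libraries, and AT10 and AT01 were compared with limma 3.58.1 in R 4.3.3 (lmFit, eBayes with a trend). The design has 2 groups and no covariate. The p-values were adjusted after Benjamini and Hochberg over all 11611 records. The test was tried on simulated data with known changes. The criterion with a fold change follows the study's methods. Other steps used Python 3.11.15, NumPy 2.4.6, SciPy 1.17.1, pandas 2.3.3 and Matplotlib 3.10.9. Promoter sequences are those of RefSeq (GRCr8), matched by symbol.

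Named are every record with an adjusted p under 0.05, the 8 highest and the 8 lowest named records without overlap that met the criterion, the extremes of each list and its members that met the criterion, and the genes the study took up. A list extreme that this rule selects is not reported here. The members, lists and rules were chosen with earlier results of these data known. The list of immediate early genes, the block that varies with Rn5-8s and a few further genes were chosen after seeing the values of this comparison, as the text says where they appear. Alternatives were to use all records, to keep those that averaged 10 FPKM or more, a pseudocount of 0.1, only records above 0 in all 6 libraries, 1 fit over 12 libraries, median-of-ratios scaling, values summed by gene name, the replicate number as a block, no records at 2 levels, and each library left out in turn. Leaving out the ribosomal block, alone or with the records at 2 levels, was added after seeing the data.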

Additional observations from a re-analysis of the deposited data

How the results depend on the processing

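The counts of records moved with several settings. Most values of single records stayed on their side of the criterion, but these include records that did not meet it. Among those that met it, Bdnf, Marcks, Rn5-8s, LOC100361993 and AABR07007121.1 lost it in most sets with 1 library left out. By the criterion of the study, a pseudocount of 0.1 gave 41 higher records, a mean of at least 10 FPKM 8 higher and 27 lower, and 1 fit over 12 libraries 35 higher. Without records at 2 levels 12 were higher, and without these and the ribosomal block 12 were higher and 20 lower. With each library left out in turn the criterion gave 26 to 59 higher and 34 to 82 lower records. An adjusted p under 0.05 was met by 5 records at a mean of at least 10 FPKM, by 0 in 1 fit over 12 libraries, by 2 without records at 2 levels, by 2 without these and the ribosomal block, and by 12 to 24 with 1 library left out. Groups did not overlap for 818 higher records with no filter, for 204 higher and 317 lower at 10 FPKM, and for 970 to 1377 higher and 1179 to 1829 lower with 1 library left out, where fewer libraries make overlap rarer.

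The labels give both groups the replicate numbers 1 to 3, but same-numbered libraries did not deviate together, with correlations of 0.06, -0.01 and -0.00. The replicate block gave 27 higher and 39 lower records and 0 with an adjusted p under 0.05.

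List medians at a mean of at least 10 FPKM were -0.24 for adipocyte markers, -0.10 for the cyclic AMP list, -0.034 for interferon, -0.088 for TGF-beta, 0.070 for apoptosis and 0.30 for immediate early genes, and with a pseudocount of 0.1 -0.13 for interferon and 0.29 for immediate early genes. With 1 library left out the medians ranged from -0.052 to 0.084 for SR splicing factors, -0.11 to -0.025 for TGF-beta, -0.12 to 0.059 for YAP and serum response factor, 0.022 to 0.12 for cyclic AMP, -0.087 to 0.031 for cholesterol, -0.11 to 0.19 for chondrocyte markers, -0.23 to -0.014 for glucocorticoid receptor, 0.021 to 0.095 for growth factors, -0.025 to 0.093 for heat shock, 0.21 to 0.28 for immediate early genes, -0.12 to -0.024 for interferon, -0.16 to -0.020 for lysosomal proteases, -0.052 to -0.00091 for matrix metalloproteinases and 0.098 to 0.22 for prostaglandins.

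Of the recomputed values of single records 876 kept their direction and their side of the criterion, 37 lost it, 11 gained it and 4 turned. Those that gained it were Egr2, Il1a, Phf6, Ndst1 and Slco2a1 with a pseudocount of 0.1, Ctgf with all 12 libraries in 1 fit and without AT10 replicate 2, Ndst1 also without AT10 replicate 2, Smad3 without AT01 replicate 1, Dek without AT01 replicate 2 and Cstb without AT01 replicate 3. With 1 library left out the log2 fold change of Slc39a3 ranged from -0.25 to 0.68 and turned to -0.04, -0.05 and -0.25 without AT10 replicate 1, AT10 replicate 3 and AT01 replicate 2, and that of Srsf9 ranged from -0.093 to 0.40 and turned without AT10 replicate 2. The causes were not tested. With 3 libraries a group and no read counts, small differences of weakly expressed genes were not detectable.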
